A study of Mus musculus with 9 samples.

Results

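The genes described here mark astrocytes or carry out their transport and metabolic work, and their RNA was measured in the spinal cord of mice given an antisense oligonucleotide (ASO) against C9orf72, a control ASO or saline. Of 35 listed genes, 34 were in the rows analysed, out of 14831 genes in the deposited table, and Apoe is not analysed here. A gene was kept where at least 3 of 9 libraries held 0.5 RPKM or more (read counts divided by transcript length and library size). All 34 passed, and the lowest value of any of them was 1.96 RPKM, for Dio2 in a C9orf72 ASO library.

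All mice were wild-type C57Bl/6 females aged 10 weeks, and the cord was taken 2 weeks after an injection of 10 µl into the right lateral ventricle. The C9orf72 ASO group received 500 µg of the mouse C9orf72 ASO (number 571883 in the labels), the control ASO group 500 µg of a control ASO (number 456835), and the saline group no ASO, with 3 strand-specific libraries each. The strain tag is blank for 1 control ASO library, whose source is still given as C57Bl/6 mice. An ASO is a short modified nucleic acid that pairs with a chosen RNA and lowers it, and the design asks what loss of C9orf72 function does in the cord. The mice carry no repeat expansion, and an ASO lowers the RNA without removing the gene. No label tells whether each library of a group is a different animal, so the p-values measure the spread between these libraries.

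Astrocytes clear glutamate and GABA from the space around synapses, convert glutamate to glutamine, and take up the potassium that active neurons release. Their end-feet on blood vessels are rich in water and potassium channels, and gap junctions join neighbouring astrocytes into a network. They also store glycogen, hand lipids to neurons and shape synapses through secreted proteins. Loss of the glutamate transporter encoded by Slc1a2 is a known feature of the spinal cord in amyotrophic lateral sclerosis, the disease for which C9orf72 is studied. Several of the genes are active in other cells too: S100b and Glul in oligodendrocytes, and Clu and Sparcl1 in neurons.

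C9orf72 itself stood at 2.68, 3.40 and 3.12 RPKM in the C9orf72 ASO libraries, against 11.2, 11.7 and 10.6 RPKM in the control ASO libraries and 10.5, 11.4 and 11.5 RPKM in the saline libraries. It fell by 1.84 on the log2 scale against the control ASO (adjusted p = 1.83e-06 by limma, SE 0.08). Spacing between the low values of the table put the depth at 90.4 to 123.9 M reads per library. For the 34 genes this depth amounts to an estimated 1223 reads at the least, for Dio2, and 324781 for Sparcl1 in its lowest library. Over all genes, libraries of 1 group correlated at 0.9859 to 0.9908 and libraries of different groups at 0.9838 to 0.9904.

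The promoters of 3 genes are printed because these genes had the smallest unadjusted p-values of the 34 in any comparison: Slc6a11, which encodes an astrocyte GABA transporter, Gja1, which encodes the main astrocyte connexin, and Agt, which encodes angiotensinogen. Each sequence runs from 250 bases before the start of the gene to 50 bases after it, 5′ to 3′ on the gene's own strand, taken from RefSeq on build GRCm38.p6, and capitals mark matches to the motifs named below them. They lie at chr6:114130991-114131290 on the plus strand for Slc6a11, at chr10:56377050-56377349 on the plus strand for Gja1 and at chr8:124569657-124569956 on the minus strand for Agt.
Slc6a11: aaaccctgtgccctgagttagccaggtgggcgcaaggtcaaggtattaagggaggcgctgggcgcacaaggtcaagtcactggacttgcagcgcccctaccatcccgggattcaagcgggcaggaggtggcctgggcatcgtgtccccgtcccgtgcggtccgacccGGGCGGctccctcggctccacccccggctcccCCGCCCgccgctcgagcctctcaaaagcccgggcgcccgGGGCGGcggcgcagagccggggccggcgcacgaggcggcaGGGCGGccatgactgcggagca
Gja1: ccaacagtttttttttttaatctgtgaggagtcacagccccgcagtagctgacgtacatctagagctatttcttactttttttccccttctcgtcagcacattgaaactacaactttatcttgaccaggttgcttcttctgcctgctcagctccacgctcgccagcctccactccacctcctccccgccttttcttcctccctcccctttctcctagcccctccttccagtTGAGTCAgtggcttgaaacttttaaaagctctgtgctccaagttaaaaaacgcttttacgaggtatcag
Agt: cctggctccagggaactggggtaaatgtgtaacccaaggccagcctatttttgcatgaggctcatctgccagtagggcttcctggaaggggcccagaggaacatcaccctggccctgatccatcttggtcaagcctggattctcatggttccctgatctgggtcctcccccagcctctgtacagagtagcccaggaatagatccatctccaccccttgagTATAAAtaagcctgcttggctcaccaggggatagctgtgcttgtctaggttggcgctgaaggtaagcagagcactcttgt

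The motifs were searched on both strands, and none of their matches overlapped in the 3 sequences. The GC box GGGCGG, a binding motif of Sp factors, occurred in Slc6a11 at 83, 51 and 12 bases before the start and at 29 bases after it. It was found in 35.7% of 32851 mouse promoters of this length. The 29 genes with a listed promoter had 35 promoters, of which 17 held the GC box, at 16 genes. Gja1 held the AP-1 motif TGAGTCA at 19 bases before its start, a motif found in 5.2% of all promoters. It was in 2 of the 35 promoters, and the other gene was F3. Agt held the TATA box TATAAA at 30 bases before its start, found in 13.6% of all promoters and in 7 of the 35, at 7 genes. A match is a run of letters in the window and was not tested as a binding site.

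The 34 genes were well expressed in the cord. The median of their mean levels over the 9 libraries was 53.2 RPKM, against 7.96 RPKM for the 14430 genes tested, and 12 of the 34 stood above 100 RPKM, 18 between 10 and 100 RPKM and 4 below 10 RPKM. Sparcl1, which encodes a secreted protein that promotes synapse formation, was the highest at a mean of 1268 RPKM and ranked 9 among the genes tested. S100b followed at 613 RPKM, then Glul at 435 RPKM, Aldoc at 375 RPKM and Atp1b2 at 299 RPKM. At the other end were Cbs at 8.82 RPKM, Gpc5 at 8.21 RPKM, Bmpr1b at 7.13 RPKM and Dio2 at 2.72 RPKM. The ratio of the highest to the lowest of the 9 libraries had a median of 1.26 over the 34 genes, against 1.27 over all genes tested, and was under 1.5 for 28 of them. It was 1.07 for Aldh1l1, the steadiest, and 1.93 for Dio2, the most variable.

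**Figure D1:**
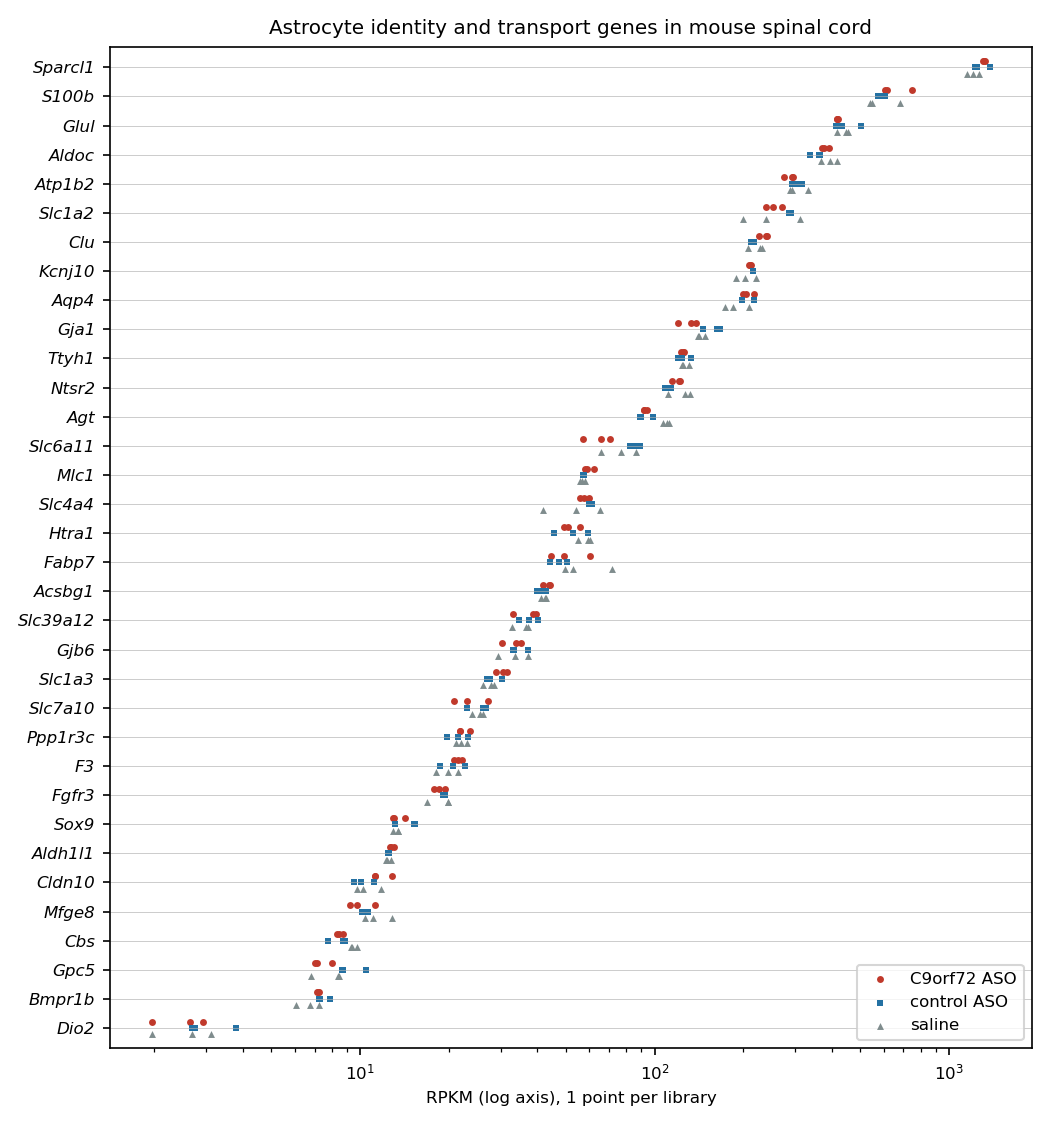
RPKM of each of the 34 genes (log axis), with 1 point per library and the groups as colours and symbols. The genes span Dio2 at a mean of 2.72 RPKM to Sparcl1 at 1268 RPKM, and for most of them the libraries of the 3 groups lie close together.

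Summed over the 34 genes, the level was 4951, 4994 and 5116 RPKM in the C9orf72 ASO libraries, 5052, 5086 and 4874 RPKM in the control ASO libraries and 4822, 4953 and 4931 RPKM in the saline libraries. The means were 5020 ± 85.6 RPKM after the C9orf72 ASO, 5004 ± 114 RPKM after control ASO and 4902 ± 70.3 RPKM after saline (SD, n = 3 each), and the ranges of the groups overlapped in each comparison. Sparcl1 and S100b, at means of 1268 and 613 RPKM, weigh most in these sums, and both are active in other cells too. In bulk tissue, fewer cells of a type and less RNA per cell cannot be told apart.

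None of the 34 genes passed the threshold of an adjusted p under 0.05 in any of the 3 comparisons (limma, Benjamini-Hochberg over 14430 genes). Of all genes tested, 0.0693% passed for the C9orf72 ASO against the control ASO, 0.0693% for the C9orf72 ASO against saline and 0.00693% for the control ASO against saline. At an unadjusted p under 0.05 there were 4 of 34 (11.8%) against the control ASO, where the share of all genes was 14.1%. Of these, 1 was higher (2.94%, all genes 6.39%) and 3 were lower (8.82%, all genes 7.71%). There were likewise 4 of 34 (11.8%) for the C9orf72 ASO against saline, where the share of all genes was 14%, with 1 higher (2.94%, all genes 3.79%) and 3 lower (8.82%, all genes 10.2%). For the control ASO against saline there were 5 of 34 (14.7%), where the share of all genes was 5.35%, with 2 higher (5.88%, all genes 1.37%) and 3 lower (8.82%, all genes 3.98%). The lowest adjusted p of all 34 genes and 3 comparisons was 0.164, for Agt in the C9orf72 ASO group against saline. The 3 comparisons share groups, so that a library that stands apart enters more than 1 of them.

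The fold changes were small as well as short of the threshold. On the log2(RPKM + 0.1) scale the median over the 34 genes was -0.01 for the C9orf72 ASO against the control ASO, 0.00 for the C9orf72 ASO against saline and 0.03 for the control ASO against saline, beside medians of -0.01, -0.03 and -0.02 over all genes tested. Single genes ranged from -0.41 to 0.20 against the control ASO and from -0.24 to 0.16 for the C9orf72 ASO against saline. The 95% confidence interval of the fold change lay within 1.5-fold in either direction for 32 of the 34 genes against the control ASO, the exceptions being Slc6a11 and Dio2. It did so for all 34 genes in the C9orf72 ASO group against saline, and for 33 in the control ASO group against saline, where Dio2 was the exception.

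**Figure D2:**
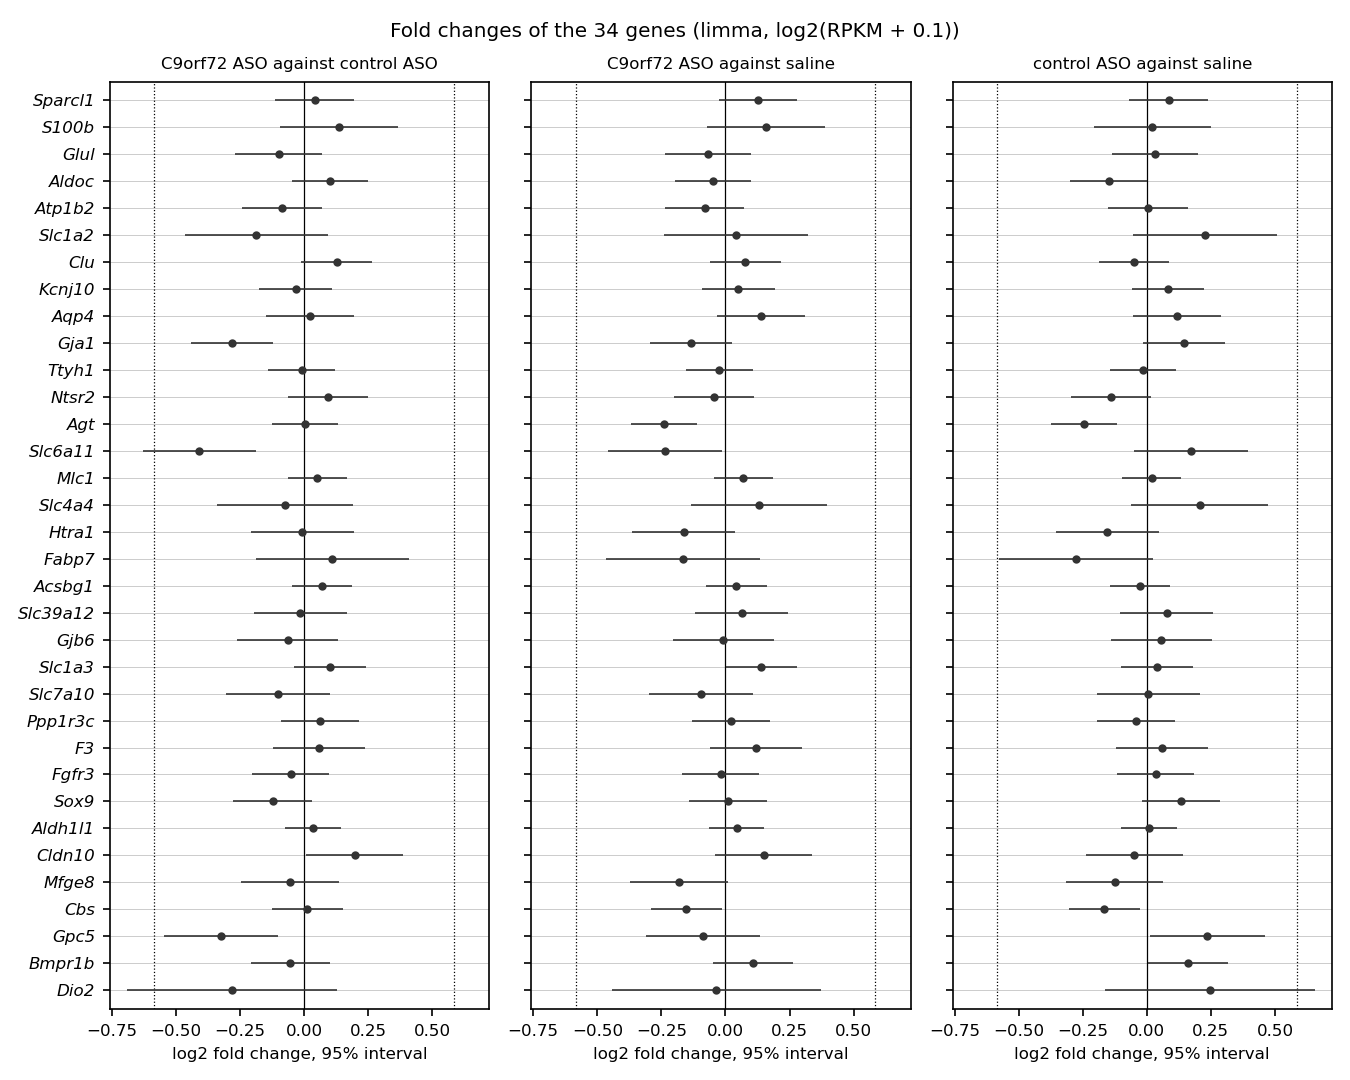
Log2 fold change of each of the 34 genes with its 95% confidence interval, in a panel for each comparison, ordered by mean level, with dotted lines at 1.5-fold. Against the control ASO the intervals of Slc6a11, Gja1 and Gpc5 lie below 0 and that of Cldn10 just above it, and against saline those of Agt and Cbs lie below 0 in both ASO groups. For the C9orf72 ASO against saline that of Slc6a11 also lies below 0 and that of Slc1a3 just above it. For the control ASO against saline that of Aldoc also lies just below 0, and those of Gpc5 and Bmpr1b lie above it.

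The groups' libraries did not overlap for 12 of the 34 genes (35.3%) in the C9orf72 ASO group against the control ASO, where this held for 22% of all genes. In 6 of them the C9orf72 ASO libraries were the higher ones (Aldh1l1, Aldoc, Cldn10, Clu, Mlc1 and Ntsr2; 17.6%, all genes 10.1%). In the other 6 they were the lower ones (Bmpr1b, Gja1, Gpc5, Kcnj10, Slc1a2 and Slc6a11; 17.6%, all genes 11.8%). Against saline the C9orf72 ASO libraries lay apart for 5 genes (14.7%, all genes 18%), above for Slc1a3 and Sparcl1 (5.88%, all genes 5.61%) and below for Agt, Cbs and Gja1 (8.82%, all genes 12.4%). The control ASO libraries lay apart from saline for 5 genes (14.7%, all genes 10.3%), above for Bmpr1b and Gpc5 (5.88%, all genes 3.16%) and below for Agt, Aldoc and Cbs (8.82%, all genes 7.15%). Gja1 was thus the only gene of the 34 for which every C9orf72 ASO library was below every library of both other groups, and Agt and Cbs were those for which both ASO groups lay below saline. The share of all genes with either of these joint patterns was not counted, so they are descriptions of single genes.

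Transporters and enzymes that handle transmitters were led by Slc1a2, which encodes the transporter responsible for most glutamate uptake in the central nervous system. Slc1a2 stood at 252, 271 and 238 RPKM in the C9orf72 ASO libraries, 289, 290 and 286 RPKM in the control ASO libraries and 200, 313 and 239 RPKM in the saline libraries. The control ASO values lay together above all C9orf72 ASO values, and the saline values spread across both. Its log2 fold change was -0.19 against the control ASO (adjusted p = 0.519, SE 0.13) and 0.04 against saline (adjusted p = 0.916). For the control ASO against saline it was 0.23 (adjusted p = 0.794), and it was 0.08 without saline library 1 and 0.40 without saline library 2, so that single saline libraries set its size.

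Slc1a3 encodes GLAST, the other astrocyte glutamate transporter, and was expressed at a lower level. Its values were 31.5, 29.0 and 30.7 RPKM after the C9orf72 ASO, 27.6, 30.4 and 27.0 RPKM after control ASO and 26.2, 28.5 and 27.9 RPKM after saline. All C9orf72 ASO values lay above those of saline, at a log2 fold change of 0.14 (adjusted p = 0.357, SE 0.06), while they overlapped with the control ASO values at 0.10 (adjusted p = 0.486). Glul, which encodes glutamine synthetase, was at 416, 421 and 417 RPKM after the C9orf72 ASO, 413, 501 and 433 RPKM after control ASO and 416, 446 and 452 RPKM after saline. The C9orf72 ASO values were nearly equal and lay inside or at the lower end of the other groups' ranges, with a log2 fold change of -0.10 against the control ASO (95% interval -0.27 to 0.07, adjusted p = 0.569).

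Slc6a11 had the lowest fold change of the 34 genes. Its values were 57.2, 65.9 and 70.8 RPKM in the C9orf72 ASO libraries, 85.1, 82.3 and 89.2 RPKM in the control ASO libraries and 65.7, 86.1 and 77.0 RPKM in the saline libraries. The C9orf72 ASO values were all below the control ASO values and overlapped with saline library 1 alone. The log2 fold change was -0.41 against the control ASO (SE 0.10, 95% interval -0.63 to -0.19, unadjusted p = 0.0018, adjusted p = 0.22, limma). Against saline it was -0.24 (adjusted p = 0.33), and there it was -0.14 without saline library 2, -0.15 without C9orf72 ASO library 1 and -0.14 once trends with length and GC had been removed. Its adjusted p against the control ASO lay between 0.0701 and 0.637 under the alternatives, with the lowest value when saline library 2 was left out.

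Slc7a10, an amino acid exchanger that carries serine and glycine, averaged 23.7 ± 3.19 RPKM after the C9orf72 ASO, 25.4 ± 1.98 RPKM after control ASO and 25.2 ± 1.07 RPKM after saline (SD, n = 3 each), with overlapping ranges. Cbs, the enzyme cystathionine beta-synthase, which makes cystathionine on the way to cysteine, was at 8.71, 8.50 and 8.35 RPKM after the C9orf72 ASO, 8.87, 8.76 and 7.76 RPKM after control ASO and 9.28, 9.77 and 9.41 RPKM after saline. Both ASO groups lay below saline, at log2 fold changes of -0.15 for the C9orf72 ASO (adjusted p = 0.316) and -0.17 for the control ASO (adjusted p = 0.794). The 6 genes of this role had a median log2 fold change of -0.10 against the control ASO, with 4 below 0 and 2 above it.

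**Figure D3:**
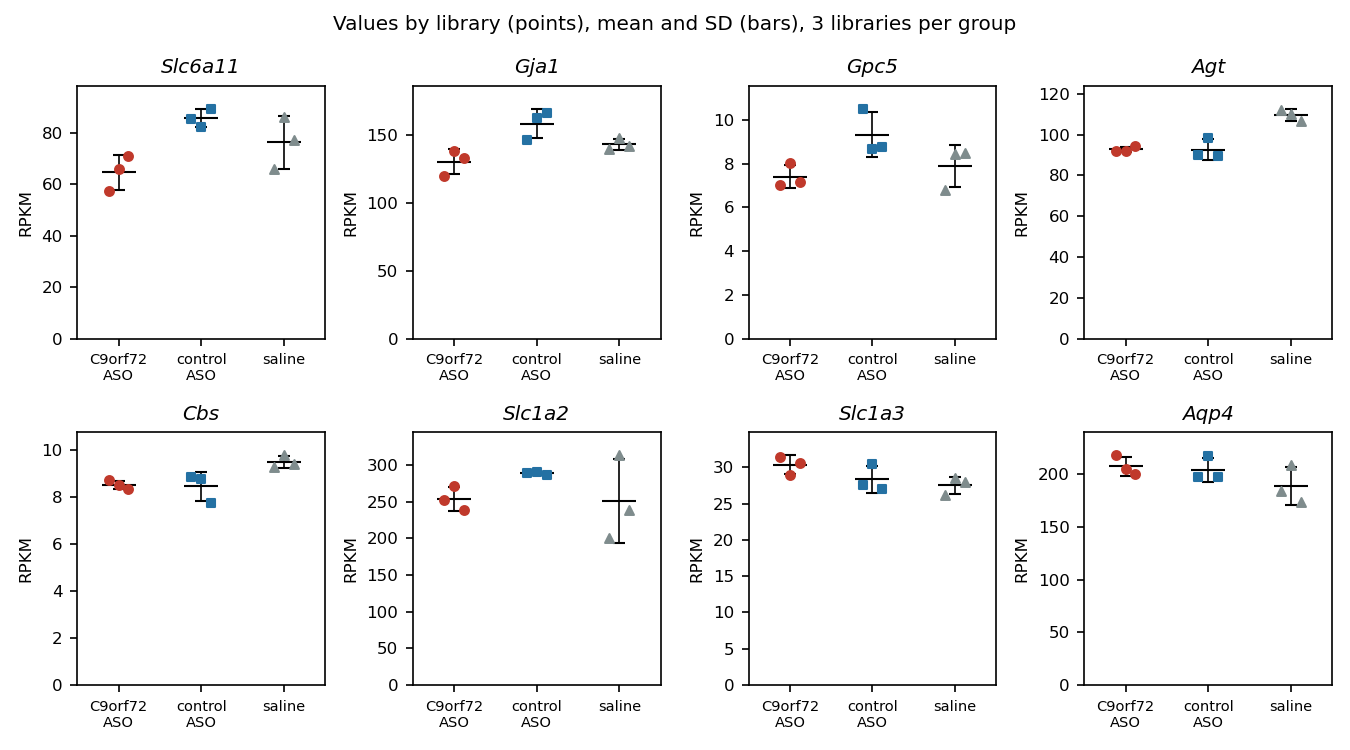
RPKM of 8 of the genes by library (points), with the mean and SD of each group of 3 (bars), on axes that start at 0. Slc6a11, Gja1 and Gpc5 have their lowest group mean after the C9orf72 ASO, Agt and Cbs are lower in both ASO groups than after saline, and Slc1a2 has its widest spread in the saline group.

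Among the channels, pumps and junctions, Aqp4 encodes the water channel of astrocyte end-feet. It was at 218, 205 and 200.04 RPKM after the C9orf72 ASO, 198, 218 and 198 RPKM after control ASO and 185, 209 and 174 RPKM after saline. The groups overlapped, with log2 fold changes of 0.02 against the control ASO (95% interval -0.15 to 0.19, adjusted p = 0.918) and 0.14 against saline (-0.03 to 0.31, adjusted p = 0.449). Kcnj10, the potassium channel through which astrocytes take up potassium, was at 212, 209 and 211 RPKM after the C9orf72 ASO, 216, 216 and 215 RPKM after control ASO and 189, 220.2 and 203 RPKM after saline. The C9orf72 ASO values lay just below those of the control ASO, by a log2 fold change of -0.03 (95% interval -0.17 to 0.11, adjusted p = 0.84), and inside the range of saline.

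The gap junction genes differed from each other in where their groups lay. Gja1 was at 120.2, 138 and 133 RPKM in the C9orf72 ASO libraries, 146, 163 and 167 RPKM in the control ASO libraries and 140.1, 148 and 142 RPKM in the saline libraries. Every C9orf72 ASO value was below every other value. Its log2 fold change was -0.28 against the control ASO (SE 0.07, 95% interval -0.44 to -0.12, unadjusted p = 0.0025, adjusted p = 0.234, limma) and -0.14 against saline (adjusted p = 0.427), where it was -0.08 without C9orf72 ASO library 1. Over the alternatives its adjusted p against the control ASO lay between 0.102 and 0.637. Gjb6, which encodes the other astrocyte connexin of the list, was at 30.3, 35.1 and 33.9 RPKM after the C9orf72 ASO, 33.1, 37.2 and 33.4 RPKM after control ASO and 29.3, 33.7 and 37.1 RPKM after saline, with overlapping groups and a log2 fold change of -0.06 against the control ASO (adjusted p = 0.766).

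Cldn10, a claudin, was at 11.2, 12.8 and 11.3 RPKM after the C9orf72 ASO, 9.57, 11.1 and 10.0 RPKM after control ASO and 10.2, 9.76 and 11.8 RPKM after saline. The C9orf72 ASO values were above those of the control ASO and overlapped with saline, and 0.20 against the control ASO was the highest log2 fold change of the 34 genes there (adjusted p = 0.339, SE 0.09). Atp1b2, the glial beta subunit of the sodium pump, ranged over all 9 libraries from 275 to 332 RPKM around a mean of 299 RPKM. Slc4a4, a sodium bicarbonate cotransporter, averaged 57.5 RPKM, and its range of 41.9 to 65.2 RPKM was set at both ends by saline libraries. Mlc1, a membrane protein of astrocyte junctions whose loss causes a leukoencephalopathy with brain swelling, stayed between 55.6 and 62.0 RPKM (mean 58.0 RPKM). Ttyh1, a membrane protein of the tweety family, stayed between 119.7 and 133 RPKM (mean 125.5 RPKM), and Slc39a12, a zinc transporter, between 32.7 and 40.1 RPKM (mean 36.6 RPKM). Over the 10 genes of this role the median log2 fold change was -0.02 against the control ASO, and 7 of them were below 0.

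The enzymes included Aldh1l1, a folate enzyme widely used as an astrocyte marker, which varied least of the 34 genes. It was at 12.7, 12.6 and 13.0 RPKM after the C9orf72 ASO, 12.5, 12.4 and 12.6 RPKM after control ASO and 12.3, 12.2 and 12.7 RPKM after saline. The C9orf72 ASO values lay above those of the control ASO by a log2 fold change of 0.03, with a 95% interval of -0.07 to 0.14 (adjusted p = 0.773). Aldoc, the astrocyte form of the glycolytic enzyme aldolase, was at 376, 370 and 391.9 RPKM after the C9orf72 ASO, 364, 361 and 336 RPKM after control ASO and 394, 367 and 417 RPKM after saline. The control ASO group was the lowest, with a log2 fold change against saline of -0.15 (adjusted p = 0.794, SE 0.07), and the C9orf72 ASO group lay between, at 0.10 against the control ASO (adjusted p = 0.511).

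Of the remaining enzymes and lipid carriers, Clu, which encodes the lipid-binding chaperone clusterin, averaged 235 ± 7.94 RPKM after the C9orf72 ASO, 215 ± 2.53 RPKM after control ASO and 223 ± 13.0 RPKM after saline (SD, n = 3 each). Acsbg1, an acyl-CoA synthetase, had a mean of 42.2 RPKM and a range of 39.8 to 44.2 RPKM. Ppp1r3c, which targets a phosphatase to glycogen, had a mean of 22.01 RPKM and a range of 19.7 to 23.6 RPKM. Fabp7, a brain fatty acid binding protein, ranged from 44.1 to 71.5 RPKM around 52.2 RPKM, with its highest value in saline library 1. Dio2, the deiodinase that activates thyroid hormone, averaged 2.51 ± 0.497 RPKM after the C9orf72 ASO, 3.07 ± 0.620 RPKM after control ASO and 2.58 ± 0.574 RPKM after saline (SD, n = 3 each), and its groups overlapped. Of the 7 genes of this role, 6 had a log2 fold change above 0 against the control ASO and 4 against saline, with medians of 0.07 and 0.02.

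Sox9, a transcription factor of the astrocyte nucleus, was at 13.0, 12.9 and 14.2 RPKM after the C9orf72 ASO, 13.2, 15.3 and 15.4 RPKM after control ASO and 13.0, 13.4 and 13.4 RPKM after saline. Its groups overlapped, with log2 fold changes of -0.12 against the control ASO (adjusted p = 0.444) and 0.01 against saline (adjusted p = 0.966). S100b, a calcium-binding protein, was at 616, 606 and 746 RPKM after the C9orf72 ASO, 608, 600 and 575 RPKM after control ASO and 682, 537 and 546 RPKM after saline. C9orf72 ASO library 3 and saline library 1 were the high ones, and the log2 fold change was 0.14 against the control ASO (adjusted p = 0.563, SE 0.11). Bmpr1b, a receptor for bone morphogenetic proteins, was at 7.23, 7.16 and 7.21 RPKM after the C9orf72 ASO, 7.26, 7.89 and 7.30 RPKM after control ASO and 6.07, 7.24 and 6.78 RPKM after saline. The control ASO values lay just above all others, at 0.16 against saline (adjusted p = 0.794, SE 0.07). Fgfr3, a fibroblast growth factor receptor, ranged from 16.9 to 19.8 RPKM (mean 18.9 RPKM), and Ntsr2, a neurotensin receptor, from 108.7 to 132 RPKM (mean 118 RPKM).

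Among the secreted and surface proteins, Agt encodes the precursor of angiotensin peptides, which astrocytes make in the brain. It was at 91.8, 92.2 and 94.3 RPKM in the C9orf72 ASO libraries, 89.96, 98.5 and 89.5 RPKM in the control ASO libraries and 112, 110.2 and 106.5 RPKM in the saline libraries. Both ASO groups lay below saline and overlapped with each other. The log2 fold change was -0.24 for the C9orf72 ASO against saline (SE 0.06, 95% interval -0.37 to -0.11, unadjusted p = 0.0017, adjusted p = 0.164, limma). It was also -0.24 for the control ASO against saline (unadjusted p = 0.0015, adjusted p = 0.794) and 0.00 between the ASO groups. With length and GC trends removed from each library, Agt was at -0.17 for the C9orf72 ASO and at -0.15 for the control ASO.

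Gpc5, a glypican that carries heparan sulfate on the cell surface, was at 7.04, 8.03 and 7.16 RPKM after the C9orf72 ASO, 10.5, 8.68 and 8.77 RPKM after control ASO and 6.79, 8.43 and 8.50 RPKM after saline. The control ASO values were above all others, and those of the C9orf72 ASO and saline overlapped. Its log2 fold change was -0.32 for the C9orf72 ASO against the control ASO (adjusted p = 0.254, SE 0.10), -0.09 for the C9orf72 ASO against saline (adjusted p = 0.744) and 0.24 for the control ASO against saline (adjusted p = 0.794). Mfge8, a secreted protein that tags cell remnants for uptake, was at 9.72, 9.26 and 11.2 RPKM after the C9orf72 ASO, 10.6, 10.1 and 10.6 RPKM after control ASO and 12.8, 11.1 and 10.4 RPKM after saline. Its groups overlapped, at -0.18 for the C9orf72 ASO against saline (adjusted p = 0.377, SE 0.09).

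Sparcl1 averaged 1316 ± 11.9 RPKM after the C9orf72 ASO, 1281 ± 84.2 RPKM after control ASO and 1207 ± 56.9 RPKM after saline (SD, n = 3 each), and the log2 fold change against saline was 0.13 (95% interval -0.03 to 0.28, adjusted p = 0.445). Htra1, a secreted serine protease, ranged from 45.4 to 60.4 RPKM (mean 54.3 RPKM). F3, which encodes tissue factor, the starter of blood clotting, ranged from 18.0 to 22.7 RPKM (mean 20.7 RPKM). The 6 secreted and surface genes had median log2 fold changes of 0.00 against the control ASO and -0.13 for the C9orf72 ASO against saline.

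A pattern of transcript length ran through the libraries and touched the same genes. Each gene's deviation from its own mean over the 9 libraries was set against the log of its exon length, across the 34 genes. The correlation was -0.04, -0.21 and -0.24 in the C9orf72 ASO libraries, 0.41, 0.39 and 0.44 in the control ASO libraries and -0.59, 0.50 and -0.30 in the saline libraries. Over all 13970 genes with a known length it ran from -0.16 to -0.03 after the C9orf72 ASO, from 0.14 to 0.17 after the control ASO and from -0.26 to 0.28 after saline. These are correlations across genes, which are not independent replicates, and the genes of a library share its preparation and depth.

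Over the 34 genes, saline library 1 stood furthest from 0. Its median deviation was -0.26 (log2) over the 4 genes longer than 8000 bases, which were Slc1a2, Slc1a3, Slc4a4 and Gja1, and 0.20 over the 3 shorter than 2000 bases, which were Fabp7, S100b and Agt. Slc1a2 at 200.1 RPKM and Slc4a4 at 41.9 RPKM had their lowest values there, and Fabp7 at 71.5 RPKM its highest. With length and GC trends removed, the median log2 fold change of the 34 genes for the control ASO against saline was 0.07, against 0.03 as deposited, and none of the 34 passed. Gja1 was at -0.25 against the control ASO after this removal (adjusted p = 0.204) and Slc6a11 at -0.36 (adjusted p = 0.191). The part of the length pattern in the differences between groups was otherwise not tested.

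**Figure D4:**
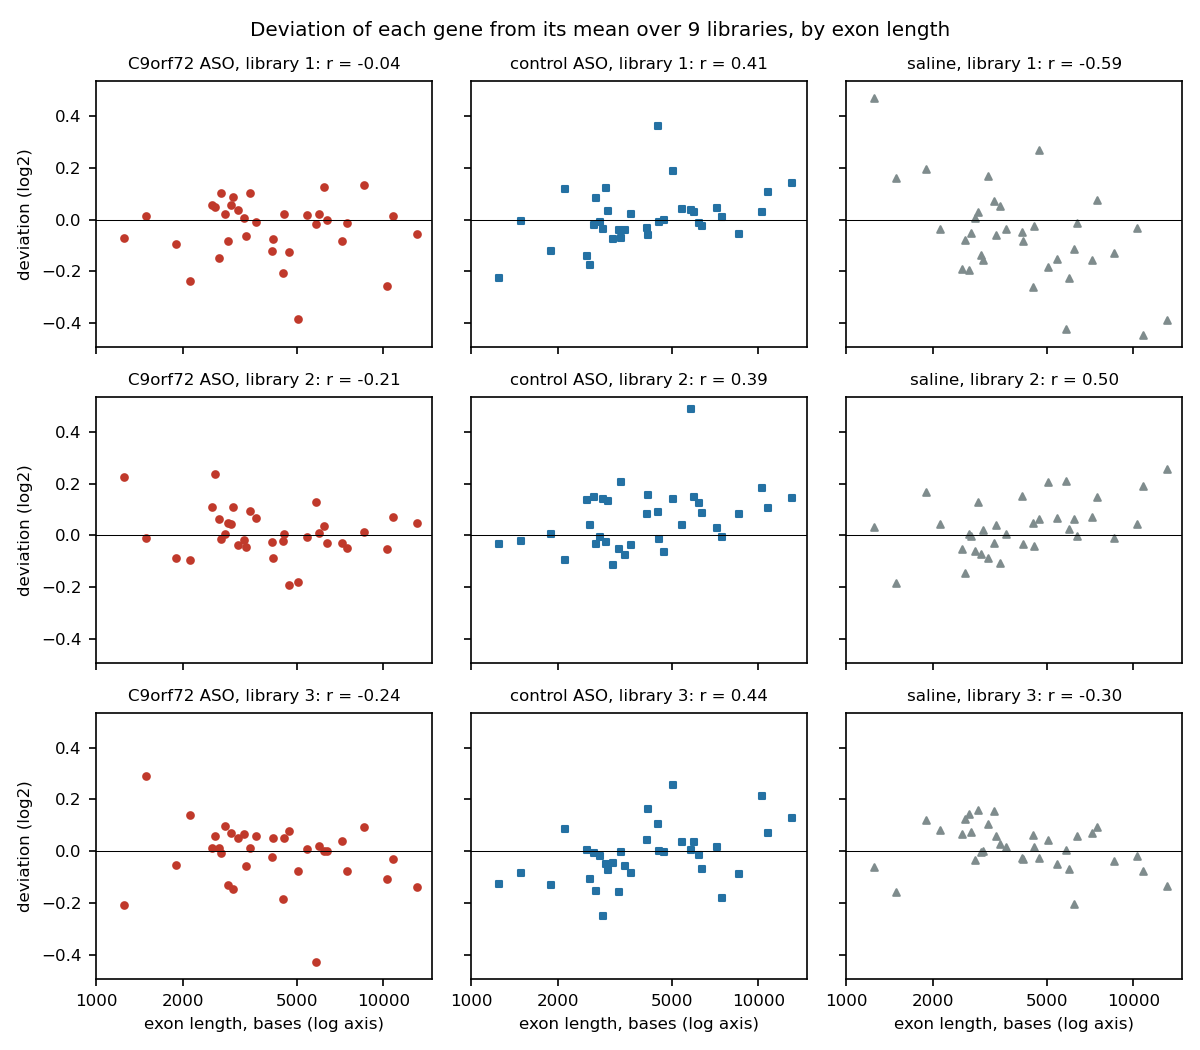
Deviation (log2) of each of the 34 genes from its mean over 9 libraries, against its exon length (log axis), with a panel for each library and the groups in columns. Points run upward with length in the 3 control ASO libraries and in saline library 2 (r = 0.50) and downward in saline library 1 (r = -0.59).

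Other astrocyte genes outside the 34 were taken from lists of partners, and none of these lists held a gene past the threshold. Of 32 further astrocyte markers, 1 was higher (all genes 6.39%) and 4 were lower (all genes 7.71%) at an unadjusted p under 0.05 against the control ASO, and the median log2 fold change was -0.01 there and -0.03 against saline. Nfia, a transcription factor that drives the formation of astrocytes, had the smallest p of them. It was at 14.9, 15.8 and 14.6 RPKM in the C9orf72 ASO libraries, 18.2, 21.1 and 20.1 RPKM in the control ASO libraries and 17.1, 20.001 and 18.1 RPKM in the saline libraries. Every C9orf72 ASO value was below every other value, at -0.38 against the control ASO (adjusted p = 0.115, SE 0.07) and -0.28 against saline (adjusted p = 0.192). With length and GC trends removed, Nfia passed at -0.35 against the control ASO (adjusted p = 0.0396) and at -0.31 against saline (adjusted p = 0.0417). Its adjusted p over all alternatives ran from 0.0396 to 0.53 against the control ASO and from 0.0417 to 0.456 against saline. Daam2, a further marker, was at -0.21 for the C9orf72 ASO against saline (adjusted p = 0.199).

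The 16 partners of the glutamate and glutamine cycle had a median log2 fold change of -0.16 for the C9orf72 ASO against the control ASO, with 15 of 16 below 0 and 5 of them at an unadjusted p under 0.05 (all genes 7.71%). Against saline the median was -0.09, with 12 of 16 below 0. Slc38a3, the astrocyte exporter of glutamine, was at 16.04, 16.2 and 16.7 RPKM after the C9orf72 ASO, 18.9, 17.3 and 19.7 RPKM after control ASO and 19.0, 20.3 and 19.1 RPKM after saline. All C9orf72 ASO values lay below the others, at -0.19 against the control ASO (adjusted p = 0.254, SE 0.06) and -0.26 against saline (adjusted p = 0.152). Slc7a11, the cystine and glutamate exchanger, was at 0.38 for the control ASO against saline (adjusted p = 0.794, SE 0.13). Neuronal genes are part of this list and of the marker lists that follow.

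The 16 partners in potassium, water and gap junction function had medians of -0.03 against the control ASO and -0.06 against saline. Gjc3, an oligodendrocyte connexin that faces astrocytes, was at 161, 167 and 137 RPKM after the C9orf72 ASO, 186, 202 and 215 RPKM after control ASO and 204, 194 and 176 RPKM after saline. All C9orf72 ASO values were below the others, at -0.38 against the control ASO (adjusted p = 0.2, SE 0.09). The 14 lipid and serine partners had medians of 0.06 and 0.05 in these comparisons, the 16 glycogen and glycolysis partners -0.01 and -0.03, and the 6 thyroid hormone partners of Dio2 -0.04 and -0.13. From these lists, for the C9orf72 ASO against saline, Fabp5, a fatty acid carrier, was at 0.27 (adjusted p = 0.25), Slc2a1, the glucose transporter of brain vessels and glia, at -0.33 (adjusted p = 0.207), Ugp2, an enzyme of glycogen synthesis, at 0.15 (adjusted p = 0.273), Slco1c1, a thyroxine carrier, at -0.30 (adjusted p = 0.268), and Hr, a thyroid hormone target, at -0.18 (adjusted p = 0.364). Shmt1, a serine enzyme, was between 0.507 and 0.595 RPKM after the C9orf72 ASO, and in the control ASO group 2 of 3 libraries stood at the 0.1 that replaces values under 0.5, so no fold is given.

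Reactive astrocyte genes, which astrocytes raise after injury, had 24 of 29 tested and none past the threshold. Their median log2 fold change was 0.10 for the C9orf72 ASO against the control ASO, 0.03 for the C9orf72 ASO against saline and -0.04 for the control ASO against saline. Of the 24 genes, 7, 9 and 16 lay below 0 in these comparisons, in the same order. Gfap, the filament protein most used to mark reactive astrocytes, was at 760, 664 and 783 RPKM after the C9orf72 ASO, 669, 676 and 666 RPKM after control ASO and 858, 665 and 634 RPKM after saline. The groups overlapped, at 0.13 against the control ASO (adjusted p = 0.595, SE 0.11), and saline library 1 held the highest value. Vim, another filament protein, was at 62.5, 54.7 and 52.0 RPKM after the C9orf72 ASO, 39.6, 47.3 and 44.3 RPKM after control ASO and 51.6, 40.9 and 39.8 RPKM after saline. All C9orf72 ASO values lay above the others, at 0.36 against both groups (adjusted p = 0.247 against the control ASO and 0.222 against saline). S100a6, a calcium-binding protein, was at 0.47 against the control ASO (adjusted p = 0.247) and 0.57 against saline (adjusted p = 0.173). Vim and S100a6 are also expressed by microglia, vessel and meningeal cells.

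**Figure D5:**
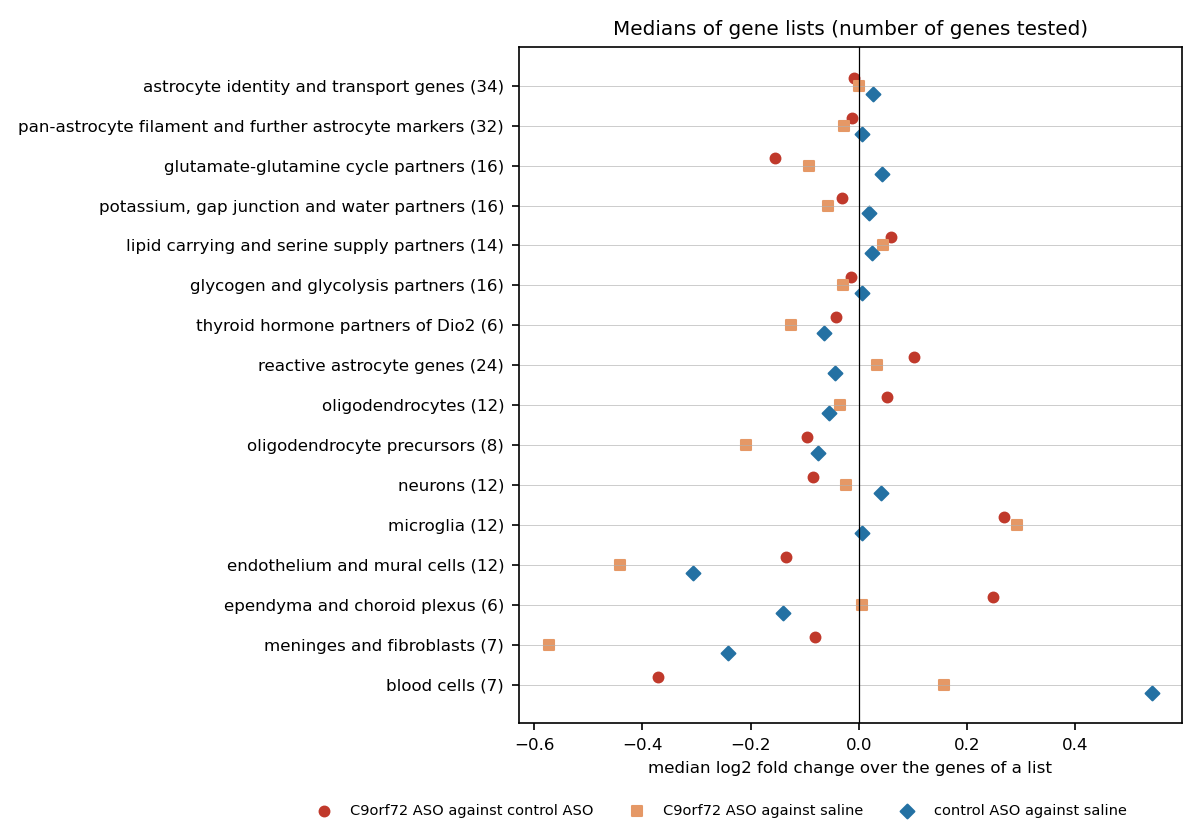
Median log2 fold change of each gene list in the 3 comparisons, with the number of genes tested in brackets. The medians of the 34 astrocyte genes lie between -0.01 and 0.03. Those of most other lists lie further from 0, among them vessel, meningeal and blood genes, and microglia genes in the 2 comparisons with the C9orf72 ASO. All other lists hold fewer genes than the 34, and a median over fewer genes varies more.

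Vessel markers had medians further from 0 than the 34 genes in all 3 comparisons, and microglia markers in the 2 that involve the C9orf72 ASO, while the microglia median was 0.01 for the control ASO against saline. Being further from 0 in all 3 comparisons was shared by the neuronal, oligodendrocyte, precursor, ependymal, meningeal and blood lists. It also held for the reactive astrocyte, glutamate cycle and thyroid hormone lists. Every other list holds fewer genes than the 34, and a median over fewer genes varies more. Within the 34, the median against the control ASO was -0.10 for the 6 transmitter and amino acid genes and 0.07 for the 7 metabolic genes. It was -0.05 for the 5 receptor and related genes, -0.02 for the 10 transport and junction genes and -0.002 for the 6 secreted and surface genes. The 12 microglia genes summed to between 241.5 and 258.6 RPKM after the C9orf72 ASO, between 194.5 and 211.5 RPKM after control ASO and between 193.9 and 219.1 RPKM after saline. Their median log2 fold change was 0.27 against the control ASO, where 7 of 12 were higher at an unadjusted p under 0.05 (all genes 6.39%) and 1 of 12 was below 0. For the C9orf72 ASO against saline 3 of 12 were below 0, 1 of them at an unadjusted p under 0.05 (all genes 10.2%). There too 7 of 12 were higher at this p (all genes 3.79%), and 1 of these 7 passed the threshold. That gene, Tyrobp, a signalling adaptor of microglia, rose by 0.68 against saline (adjusted p = 0.031, SE 0.10). It no longer passed without saline library 2 (adjusted p = 0.118), saline library 3 (0.104), C9orf72 ASO library 1 (0.098) or C9orf72 ASO library 2 (0.113), nor without trend and robust estimation (0.0925) or with only the groups compared in the fit (0.0872), and its adjusted p over all alternatives ran from 0.0063 to 0.118. The 12 vessel genes summed to between 100.4 and 105.4 RPKM after the C9orf72 ASO, between 100.01 and 129.4 RPKM after control ASO and between 130.6 and 162.7 RPKM after saline. Under the main settings none passed the threshold. At an unadjusted p under 0.05, 10 of 12 were lower for the C9orf72 ASO against saline (all genes 10.2%). For the control ASO against saline it was 6 of 12 (all genes 3.98%).

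Agt and Cbs lay below saline in the same ASO groups as the vessel genes, whose median was -0.44 for the C9orf72 ASO and -0.31 for the control ASO against saline. Meningeal genes, at medians of -0.57 for the C9orf72 ASO (6 of 7 below 0) and -0.24 for the control ASO (7 of 7), and oligodendrocyte precursor genes, at -0.21 (8 of 8) and -0.08 (5 of 8), were also below saline there. Rgs5, a pericyte gene, was at -0.87 (adjusted p = 0.0996) and Flt1, an endothelial receptor, at -0.65 (adjusted p = 0.113) for the C9orf72 ASO against saline. Over the alternatives the adjusted p there ran from 0.0285 to 0.314 for Rgs5 and from 0.0285 to 0.374 for Flt1. Slc6a11 and Gja1 lay below the control ASO in the same libraries as several lists. The neuronal list had a median of -0.08 there, with 10 of 12 below 0 and 1 of 12 lower at an unadjusted p under 0.05 (all genes 7.71%). Its sums were between 3244.6 and 3604.2 RPKM after the C9orf72 ASO and between 3639.0 and 3787.4 RPKM after the control ASO. Medians further below 0 were those of vessel (-0.14, 10 of 12 below 0) and precursor genes (-0.10, 8 of 8). So were those of blood (-0.37, 7 of 7) and glutamate cycle genes (-0.16, 15 of 16). Microglia (0.27), ependymal (0.25), reactive astrocyte (0.10), lipid (0.06) and oligodendrocyte lists (0.05) had medians above 0. Syn1, a synaptic vesicle gene of the neuronal list, was at -0.32 against the control ASO (adjusted p = 0.237) and Eno2, a neuronal enolase, at -0.10 (adjusted p = 0.48). The part of these lists in the values of the 34 genes was not tested.

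The remaining lists were those of the oligodendrocyte lineage, ependyma, meninges and blood, which share the tissue with astrocytes. Against the control ASO the median log2 fold change was 0.05 for 12 oligodendrocyte genes, -0.10 for 8 precursor genes, 0.25 for 6 ependymal and choroid plexus genes, -0.08 for 7 meningeal genes and -0.37 for 7 blood genes. For the C9orf72 ASO against saline it was -0.03 for the oligodendrocyte genes, 0.01 for the ependymal genes and 0.16 for the blood genes, and for the control ASO against saline it was -0.06, -0.14 and 0.54 for the same lists. Mbp, which encodes a myelin protein, was at 2134, 1948 and 2313 RPKM after the C9orf72 ASO, 2127, 2085 and 1967 RPKM after control ASO and 2799, 2110 and 2289 RPKM after saline, and it did not pass (0.05 against the control ASO, adjusted p = 0.861). Under the main settings none of the oligodendrocyte, precursor, ependymal and meningeal genes passed. For the C9orf72 ASO against saline the precursor gene Gpr17 was at -0.39 (adjusted p = 0.279). Its adjusted p over the alternatives ran from 0.0301 to 0.615 there. Against the control ASO, Cnp, a myelin enzyme, was at -0.31 (adjusted p = 0.257), the precursor genes Gpr17 and Olig1 were at -0.47 (adjusted p = 0.254) and -0.07 (adjusted p = 0.689), Tmem212 and Rarres2 of the ependymal list were at 0.35 (adjusted p = 0.393) and 0.22 (adjusted p = 0.363), and Igf2, a growth factor of the meninges, was at -0.32 (adjusted p = 0.541). Lum, a fibroblast proteoglycan, stood at the 0.1 floor in all C9orf72 ASO libraries and in 2 of 3 control ASO libraries, and between 0.563 and 0.785 RPKM after saline. Blood genes summed to between 750.6 and 1264.0 RPKM after the C9orf72 ASO, between 725.8 and 2927.4 RPKM after control ASO and between 852.3 and 934.7 RPKM after saline. S100a9, a neutrophil gene of that list, stood at 3.68, 2.48 and 1.52 RPKM in the control ASO libraries and at the 0.1 floor in all libraries of the other groups, and it passed the threshold against both of them (adjusted p = 0.00115 for the C9orf72 ASO against the control ASO and 0.00574 for the control ASO against saline).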

How the data were processed

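Spinal cord RNA was extracted with Trizol and sequenced in 9 strand-specific libraries, per the labels' protocols. The submitters' processing notes name cutadapt 1.2.1, GSNAP and build mm9, with the counter, annotation and gene filter not given in the sources used here. No unit stands in the header of the deposited table, and the values were read as the authors' RPKM. Low values of genes of at most 350 bases, 74 to 103 per library, were multiplied by exon length and by a depth. Of these, 63.5% to 76.2% came within 0.1 of whole reads. The depth of each library was the one that made this share highest, so that the share is no independent check of the unit. Values under 0.5 stand at 0.1 in the deposited table (5160 values), which held no value between 0.1 and 0.5. Depth was 45.2 to 62.0 reads per kilobase at 0.5 RPKM, so that the floor and not the depth limits low genes. A reference table gave symbols for 14321 of 14831 gene IDs. Exon lengths and GC shares came from a GRCm38 annotation, and promoters from RefSeq on GRCm38.p6.

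Differences were tested with limma 3.58.1 (R 4.3.3, mean trend and robust estimation through statmod 1.5.0) after adding 0.1 to each RPKM and taking log2. All 9 libraries entered 1 fit of the 14430 genes that reached 0.5 RPKM in 3 or more libraries (401 did not), with Benjamini-Hochberg adjustment over all of them and a threshold of 0.05. The script was tested on simulated data. A fold change on this scale understates the change of low genes, and RPKM carry no counts for a count test. The labels give no batch and no replicate numbers, so that libraries were numbered by accession, and no 2 libraries had identical values. The genes and lists were chosen with earlier results of these data known. Values in every library are given for the 10 of the 34 genes with the smallest p and for Slc1a2, Slc1a3, Glul, Aqp4, Kcnj10, Gja1, Gjb6, Aldh1l1, Aldoc, Sox9 and S100b. Each other list gives its genes past the threshold or the 2 with the smallest p, except 1 gene that is not reported here, and Gfap, C9orf72 and Mbp were named in any case. Alternatives covered pseudocount, floor, filter, limma settings, scaling, libraries in the fit, length and GC trends, and each library left out in turn.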

Additional observations from a re-analysis of the deposited data

How the results depend on the processing

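None of the 34 genes passed the threshold in any comparison under any of the 18 alternatives, of which 9 left out 1 library each, and the lowest adjusted p was 0.0701 (Slc6a11, without saline library 2). A gene whose 95% interval spanned 0 under both settings was given no direction. The median log2 fold change of the 34 genes for the C9orf72 ASO against the control ASO lay between -0.0444 and 0.0326 when 1 library was left out, against -0.01, and these ends came without control ASO library 3 and control ASO library 2. For the control ASO against saline it was 0.0741 with length and GC trends removed. The log2 fold change of Mbp against the control ASO was -0.26 under quantile normalization, against 0.05, and the cause was not tested. The number of all genes past the threshold moved more than the 34 genes did. For the C9orf72 ASO against the control ASO it was 10, with 16 without a filter, 19 without trend and robust estimation and 27 without C9orf72 ASO library 3. For the C9orf72 ASO against saline it was 10, with 28 with length and GC trends removed, 54 without C9orf72 ASO library 3, 16 without control ASO library 3, and 4 with only the groups compared, without saline library 2 and without C9orf72 ASO library 1 or 2. For the control ASO against saline it was 1, with 5 without a filter, 9 without trend and robust estimation, 3 with length and GC trends removed, 2 without saline library 1, and 0 without any 1 control ASO library or with at least 1 RPKM required in all 9 libraries. No paired analysis was possible because the labels give no replicate numbers.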
